A study of Homo sapiens with 7 samples.

Results

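Nascent transcription was compared between 2 libraries of MRC5VA cells, one harvested 5 h and the other 2 h after a UVC (ultraviolet C) dose of 15 J per square metre. They are 2 of the 7 libraries of a GRO-seq time course and were picked by their titles, with 1 library at each time. The other 5 libraries came from untreated cells and from cells harvested 8, 10, 12 and 24 h after the same dose. MRC5VA is an immortalised line derived from human lung fibroblasts, and all 7 libraries come from it. GRO-seq (global run-on sequencing) lets RNA polymerases that are already engaged on DNA in isolated nuclei extend their transcripts for a short time with a labelled nucleotide, and sequences the labelled RNA. For each library the deposited file holds a profile averaged over genes, with 1 signal value for each base from 2 kb before to 120 kb after a position 0. In both libraries the signal peaked shortly after position 0, which is called the start below. An average profile names no gene, so no gene, sequence or genome position can be given, the cell line cannot be checked against marker genes, and which genes were averaged is not given in the sources used here.

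UVC joins neighbouring pyrimidines in DNA into bulky lesions, and an RNA polymerase II that meets such a lesion on the transcribed strand stalls there. The farther a polymerase has to travel, the more likely it is to meet a lesion, so after UVC transcription is lost above all from the far parts of genes. Stalled polymerases recruit transcription-coupled nucleotide excision repair, the pathway disturbed in Cockayne syndrome, and transcription returns as lesions are removed. A profile by distance from the start shows where polymerases are engaged, and the comparison of 5 h with 2 h asks what changed along genes in the earliest interval of the time course after the 2 h harvest.

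Between 2 and 5 h the profile flattened. As deposited, signal was lower at 5 h from the start out to about 16 kb, higher from there onward, and higher upstream of the start as well. The ratio of 5 h to 2 h was at its lowest between 2 and 3 kb, at 0.830 (95% counting interval 0.825 to 0.835), and at its highest in the gene body between 39 and 40 kb, at 1.211 (1.2004 to 1.222). With 1 library a time there is no test between the times. Intervals cover the counting of reads only, the spread between cultures is unknown, and no p-value is given.

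The 2 profiles held nearly the same number of recovered reads, 12057067 at 2 h and 12003109 at 5 h, against 12218395 to 25795781 in the other 5 libraries. Recovered reads count only what lies within the averaged profiles. They are not the sequencing depth of a library and are not corrected for it. Each deposited value was a whole multiple of a library's step, the signal that a single read adds at a base, and the step was 1.06 times as large at 5 h as at 2 h. The mean signal from 0 to 100 kb was 2.91 at 2 h and 3.06 at 5 h in deposited units, a ratio of 1.04996. Ratios are therefore given in 2 ways. The deposited ratio keeps the authors' scale, whose factor is not stated. The scaled ratio divides each profile by its own sum from 0 to 100 kb, so that it compares shape alone and any loss in a place appears as a gain elsewhere.

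**Figure D1:**
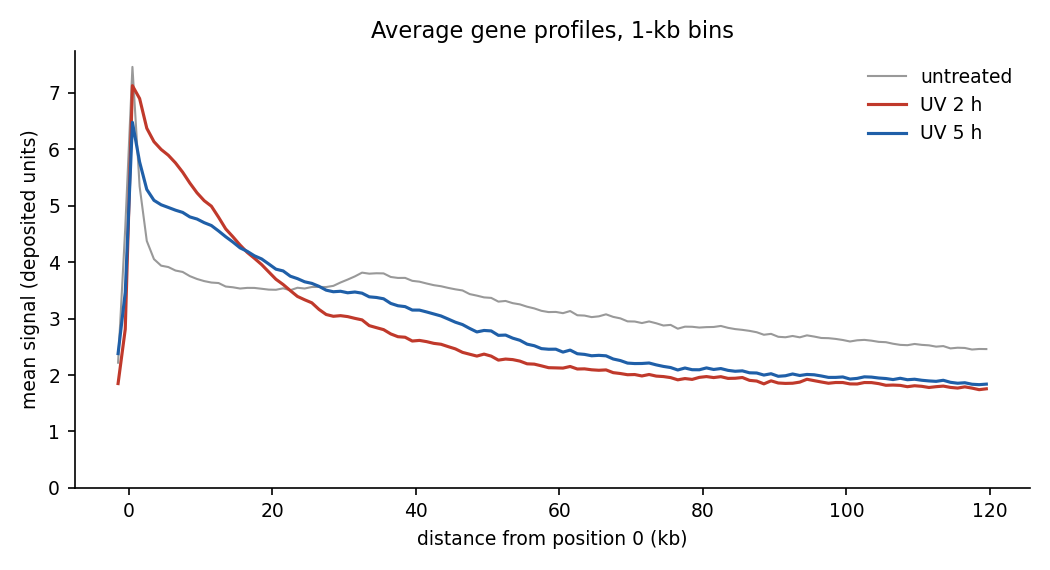
Mean signal in 1-kb bins (deposited units, y axis) against distance from position 0 (kb, x axis) at UV 2 h (red), UV 5 h (blue) and in untreated cells (grey), 1 library each. The 5 h line lies over the 2 h line upstream of position 0, under it from 0 to 16 kb and over it again from there to 120 kb.

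Of the 1-kb bins from -2 to 120 kb, 50 (41.0%) were higher at 5 h by at least 1.1-fold on deposited values and 9 (7.38%) were lower by at least 1.1-fold. The lower bins formed a single block from 0 to 9 kb. The higher bins were the 2 upstream bins, the 45 bins from 25 to 70 kb and the 3 bins from 71 to 74 kb. After scaling, 28 bins (23.0%) were higher and 13 (10.7%) lower. Those lower bins ran without a gap from 0 to 13 kb, and the higher ones were the 2 upstream bins, the 25 from 31 to 56 kb and the bin from 59 to 60 kb. The changes thus lay in long unbroken stretches on both scales. The bins nearest the threshold on deposited values were the one from 73 to 74 kb, just inside at 1.1004, and the one from 70 to 71 kb, just outside at 1.097. On the lower side they were the bin from 0 to 1 kb at 0.909 and the bin from 9 to 10 kb at 0.911. Counts of bins hang on this threshold: with a 5% difference as the threshold 94 bins were higher on deposited values, and at 1.2-fold 9 were.

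**Figure D2:**
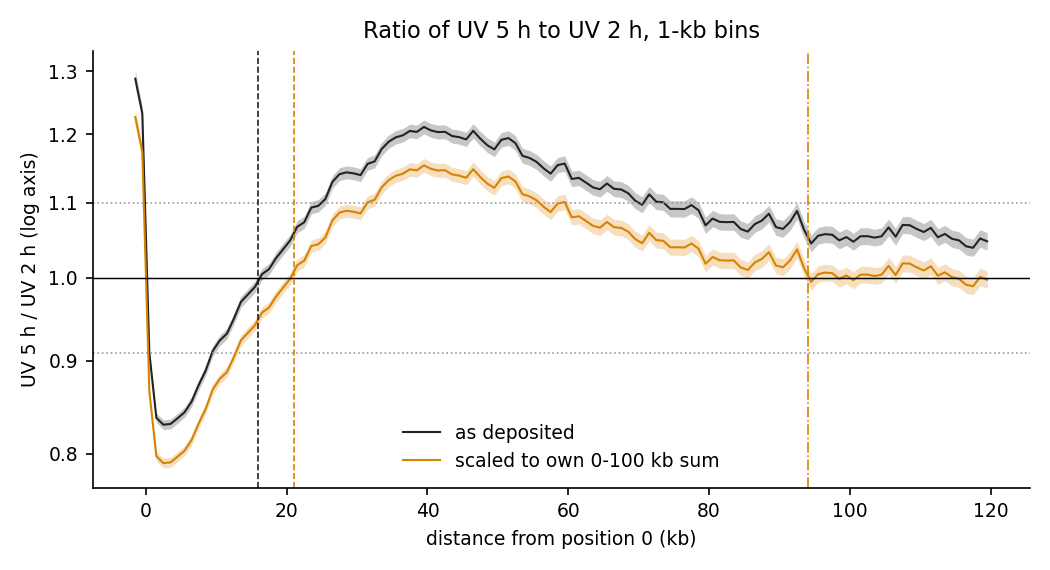
Ratio of UV 5 h to UV 2 h in 1-kb bins (log y axis) against distance from position 0 (kb), as deposited (black) and scaled to each profile's own sum from 0 to 100 kb (orange), with 95% counting intervals as bands and dotted lines at 1.1 and 0.909. Dashed lines mark the crossings at 16 and 21 kb, and the dash-dotted line the end of the scaled gain at 94 kb; the curve falls to 0.830, rises to 1.21 and settles near 1.054 as deposited.

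Upstream of the start, where average profiles can hold divergent transcription and transcription of neighbouring genes, signal was higher at 5 h. In the far kilobase (-2 to -1 kb) the mean signal was 1.85 at 2 h and 2.38 at 5 h, a deposited ratio of 1.29 (95% counting interval 1.27 to 1.301). In the near kilobase (-1 to 0 kb) it was 2.81 and 3.46, a ratio of 1.23 (1.22 to 1.24). On deposited values all 20 upstream 100-bp bins were higher at 5 h, by between 1.045 times in the bin next to the start and 1.296 times from -1100 to -1000 bp. The lowest of these ratios lay under 1.04996, the ratio of the sums from 0 to 100 kb, so the bin next to the start was not higher after scaling. The ratios of these 2 kilobases were larger than that of any 1-kb bin in the gene body. The small upstream maximum between -400 and -200 bp had a signal of 3.02 and 3.01 in its 2 bins at 2 h and of 3.82 and 3.84 at 5 h, against 5.63 and 5.94 in untreated cells. The near kilobase was thus still under the untreated level at 5 h, whereas the far kilobase (2.22 in untreated cells) lay above it. Whether reads of both strands were summed is not given in the sources used here, so upstream signal cannot be assigned to a direction of transcription.

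The direction turned within 200 bp across the start. The ratio was 1.24 from -200 to -100 bp, 1.045 from -100 to 0 bp and 0.967 from 0 to 100 bp. In the promoter-proximal kilobase, where polymerases pause soon after initiation, the mean signal was 7.13 at 2 h and 6.48 at 5 h (ratio 0.909, 95% counting interval 0.904 to 0.914). All 10 of its 100-bp bins were lower at 5 h. The deficit was smallest at the start itself and grew with distance, to a ratio of 0.851 (0.836 to 0.866) from 900 to 1000 bp.

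The shape of this kilobase differed as well. At 2 h the signal had 2 maxima of like height, 7.61 from 100 to 200 bp and 7.50 from 800 to 900 bp, with a dip to 6.75 between them. At 5 h the start peak was 7.22 in the same place, and the second maximum was lower, 6.51 from 700 to 800 bp, after a dip to 6.27. Counting intervals of these bins reached at most 0.090 to either side. In untreated cells the start peak was 9.34, and the signal from 500 to 1500 bp had its highest value, 7.04, in its nearest bin. The second maximum thus stood close to the start peak at 2 h and well under it at 5 h. After scaling, the whole kilobase had a ratio of 0.866.

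**Figure D3:**
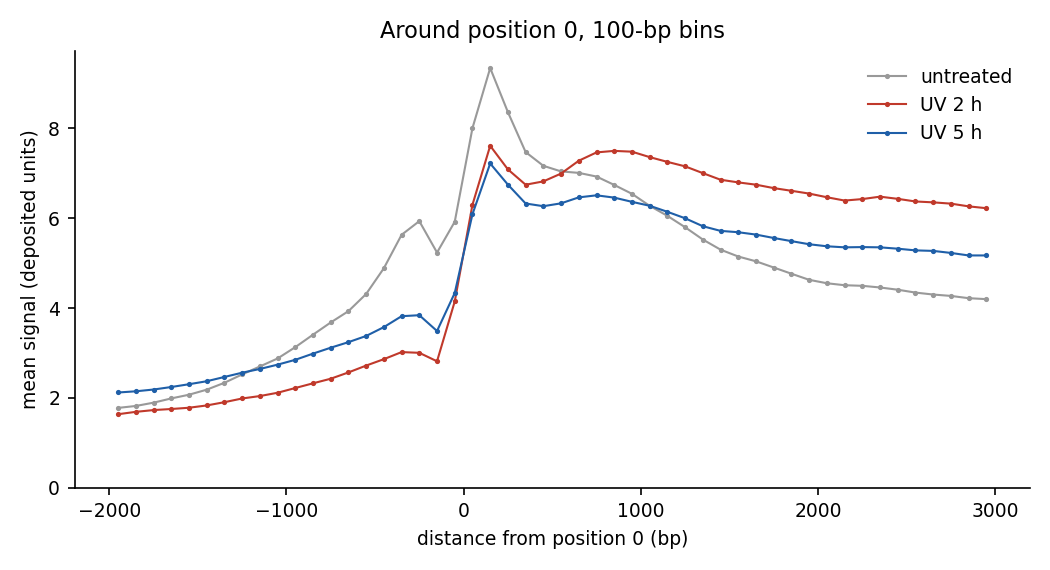
Mean signal in 100-bp bins (deposited units, y axis) against distance from position 0 (bp, x axis) at UV 2 h (red), UV 5 h (blue) and in untreated cells (grey). Upstream the 5 h points lie over those of 2 h, and beyond 0 bp they lie under them; the maximum of 7.50 near 800 bp at 2 h is 6.51 at 5 h.

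The early gene body, from 1 to 10 kb, held most of the loss. Its mean signal was 5.92 at 2 h and 5.06 at 5 h, a deposited ratio of 0.854 (95% counting interval 0.852 to 0.856), and 4.08 in untreated cells. The greatest difference of any bin lay from 1 to 2 kb, where the signal was 6.90 at 2 h and 5.78 at 5 h, a difference of -1.12 units. The ratio stayed between 0.830 and 0.837 in the 4 bins from 1 to 5 kb and then climbed with distance, to 0.911 in the bin from 9 to 10 kb. The 5 h level in this zone was lower than at 2 h and still higher than in untreated cells. Summed over bins, the loss from 0 to 16 kb came to -9.68 in units of signal times kb. Of it 80.3% fell between 1 and 10 kb, 6.72% in the promoter-proximal kilobase and 13.0% between 10 and 16 kb.

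The crossing, the start of the bin from which 5 bins in a row had a ratio above 1, lay at 16 kb on deposited values. There the ratio passed from 0.988 (0.981 to 0.996) between 15 and 16 kb to 1.005 (0.997 to 1.012) between 16 and 17 kb. After scaling it lay at 21 kb, with ratios of 0.999 and 1.02 on either side. The ratio ran smoothly through this stretch, so the crossing moved with the scale by 5 bins. In the middle gene body (10 to 30 kb) as a whole the mean signal was 3.87 at 2 h and 3.99 at 5 h. This ratio of 1.03 (1.03 to 1.03) hides a loss and a gain: it was 0.978 from 10 to 20 kb and 1.101 from 20 to 30 kb. Its direction is not settled, since the scaled ratio of the zone was 0.982.

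The main gain lay between 30 and 60 kb. The mean signal there was 2.51 at 2 h and 2.96 at 5 h, a deposited ratio of 1.18 (95% counting interval 1.18 to 1.18), and 3.50 in untreated cells. In 10-kb windows the ratio was 1.18 from 30 to 40 kb, 1.196 from 40 to 50 kb and 1.17 from 50 to 60 kb. The highest bin, from 39 to 40 kb, had a signal of 2.60 at 2 h and 3.15 at 5 h, and it was the bin with the highest ratio after scaling too (1.153, 1.143 to 1.163). It also had the greatest gain in signal of any bin beyond 1 kb, 0.549 units. The top was broad: the ratio kept at least 50% of its greatest excess over 1 from 26 to 69 kb on deposited values and from 27 to 62 kb after scaling.

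Beyond 60 kb the gain shrank with distance. The mean signal from 60 to 100 kb was 1.96 at 2 h and 2.13 at 5 h, a ratio of 1.09 (1.09 to 1.09), against an untreated level of 2.85. The 10-kb windows from 60 kb on had deposited ratios of 1.12, 1.09, 1.07, 1.06, 1.06 and 1.051. From 100 to 120 kb the signal was 1.80 at 2 h and 1.90 at 5 h (ratio 1.055), against 2.53 in untreated cells. The 5 h profile thus stayed nearer to the 2 h level than to the untreated level in the far gene body. Of the whole gain from 16 to 120 kb (26.2 in units of signal times kb), 14.0% lay between 16 and 30 kb. The stretch from 30 to 60 kb held 52.2%, that from 60 to 100 kb 26.3%, and that from 100 to 120 kb 7.54%. On deposited values this gain was larger than the loss near the start, and the summed signal from -2 to 120 kb was higher at 5 h by 17.7 of the same units. That net difference holds on the authors' scale only: in recovered reads the 5 h total was 0.996 times the 2 h total, and own-sum scaling sets the sums from 0 to 100 kb equal.

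How far the gain reached depended on the scale. The farthest distance of gain was taken as the end of the last run of at least 5 bins whose 95% counting interval lay above 1. On deposited values it was 120 kb, the end of the profile, since all 26 bins from 94 kb on had intervals above 1. Their ratio was flat, with a mean of 1.054, an SD of 0.0079 over the bins and a range of 1.04 to 1.07. After scaling the gain ended at 94 kb, between a bin at 1.01 (1.001 to 1.02) and a bin at 0.995 (0.984 to 1.005). From there on the scaled ratio had a mean of 1.004 (SD 0.0075 over 26 bins, range 0.989 to 1.02), and 5 of the 26 bins had an interval above 1 and 0 an interval below 1. In plain recovered reads, without the authors' factor and without correction for sequencing depth, the gain ended at 79 kb. Gains of at least 1.1-fold in 5 bins in a row ended at 70 kb on deposited values and at 56 kb after scaling.

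The scatter of the ratio between neighbouring bins was of the size of counting error. Beyond 10 kb the bin-to-bin SD of the log2 ratio, from second differences, was 0.0069, and the median counting standard error was 0.0073. The rise and fall of the ratio along the gene were many times larger than this. Second differences remove smooth trends, so the scatter cannot show smooth variation along the profile from sources other than counting. It also says nothing of how 2 cultures harvested at the same time would differ.

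In shape alone, apart from scale, signal was likewise lower near the start and higher from 30 to 60 kb. The deposited gain from 10 to 30 kb became a small loss (scaled ratio 0.982). The gain from 100 to 120 kb nearly vanished (scaled ratio 1.005). From 2 h to 5 h, 4.78% (95% counting interval ± 0.041) of the signal from 0 to 100 kb changed place. The 77 of 100 bins that gained held 61.5% of the signal at 2 h and 66.3% at 5 h. By zone, the share in the promoter-proximal kilobase was 2.45% at 2 h and 2.12% at 5 h, and in the early gene body 18.3% and 14.9%. The share from 10 to 30 kb was 26.6% and 26.1%, slightly lower at 5 h. It was 25.8% and 29.0% from 30 to 60 kb, and 26.9% and 27.9% from 60 to 100 kb. The 95% Wilson interval of each share was no wider than ± 0.027 percentage points. The share lost from 1 to 10 kb and the share gained from 30 to 60 kb were of like size. This is an account of sums and does not follow single polymerases.

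**Figure D4:**
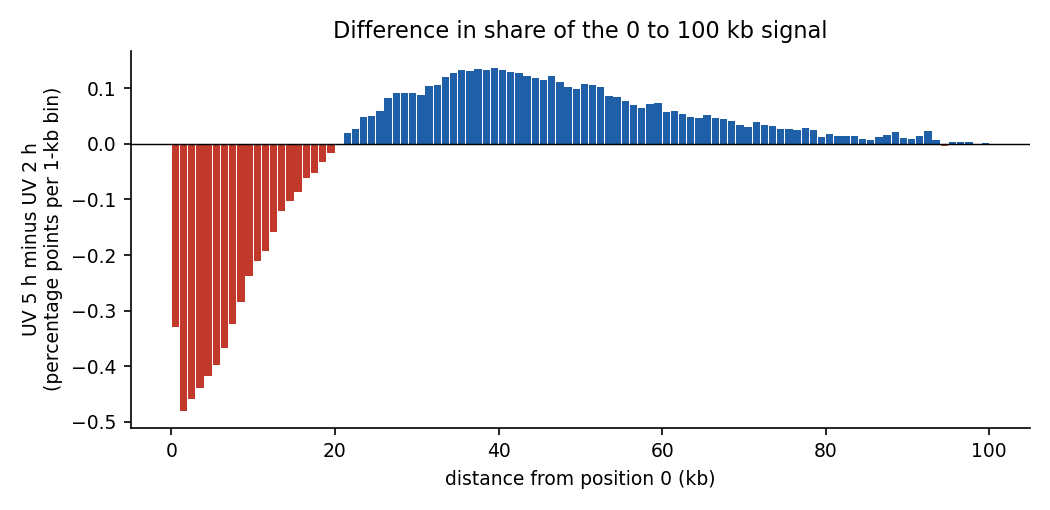
Share of the 0 to 100 kb signal in each 1-kb bin at UV 5 h minus the share at UV 2 h (percentage points, y axis) against distance from position 0 (kb). Bins lower at 5 h (red) lie before 21 kb, apart from 2 bins barely under 0 beyond 94 kb; bins higher at 5 h (blue) lie mostly between 21 and 94 kb, with the tallest near 39 kb.

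Positions that divide the signal moved outward by amounts that differed along the gene. The distance below which 10% of the 0 to 100 kb signal lay was 4.43 kb at 2 h and 5.59 kb at 5 h. For 25% it was 12.5 and 15.4 kb, and for 50%, the median signal position, 32.6 and 36.2 kb, an outward difference of 3.59 kb (± 0.041, 95% counting interval). The outer part moved less. The 75% position was 62.6 and 63.7 kb, and the 90% position 84.5 and 84.7 kb, a difference of 0.197 kb (± 0.038). In untreated cells these 5 positions were 7.13, 21.0, 43.9, 70.0 and 87.5 kb, farther out at every one.

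The decline along the gene was gentler at 5 h. Measured from the bin at 1 to 2 kb, which does not depend on scale, the signal had fallen to 75% by 10 kb in the 2 h library and by 15 kb in the 5 h library. It had fallen to 50% by 23 and 47 kb, and to 40% by 36 and 67 kb, in the same order. Part of this difference comes from the lower reference level at 5 h, which was 5.78 against 6.90. On deposited values, without such a reference, the signal dropped under 5.5 units earlier at 5 h (2 kb against 8 kb at 2 h). It dropped under 4 units at nearly the same place, 19 kb against 18 kb. It dropped under 3 units at 44 kb against 32 kb, under 2.5 units at 57 kb against 45 kb and under 2 units at 88 kb against 71 kb. Low levels were thus reached farther out at 5 h, and high levels nearer the start.

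Several directions in the gene body depend on the scale. The 10 to 30 kb log2 ratio was 0.044 as deposited, -0.026 after own-sum scaling and -0.037 in recovered reads. The 100 to 120 kb log2 ratio was 0.077 as deposited and -0.0045 in recovered reads. The far upstream kilobase had a higher ratio (1.29) than any gene-body bin, so scaling to it puts all bins beyond 1 kb below 1, with 0.941 as the highest. The contrast within the gene body, lowest at 2 to 3 kb and highest at 39 to 40 kb, is the same under any scaling by a constant.

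Later steps of the time course are given beside this one as values only, since each shares a library with the next. From 5 to 8 h, also 3 h apart, 1.98% of the signal changed place, from 8 to 10 h 0.858% and from 10 to 12 h 0.695%. From 12 to 24 h, an interval of 12 h, it was 5.15%. Their 95% counting intervals were no wider than ± 0.041 percentage points. The step from 2 to 5 h thus had a larger value than the other 3 steps of 2 or 3 h, a difference that no replicate can check. On deposited values the zones took different parts in these steps. The 1 to 10 kb ratio was 0.854 from 2 to 5 h, 0.976 from 5 to 8 h, 1.01 from 8 to 10 h and from 10 to 12 h, and 0.865 from 12 to 24 h. The values of 1.01 hold on the authors' scale only. By share of the 0 to 100 kb signal the 1 to 10 kb zone fell from 14.1% at 8 h to 13.7% at 10 h and 13.5% at 12 h. The 30 to 60 kb ratio was 1.18 from 2 to 5 h and between 1.02 and 1.06 in the later steps. The 100 to 120 kb ratio was 1.055 from 2 to 5 h and 1.17 from 12 to 24 h. In the 3 steps between them it was 1.03 to 1.04. The deposited mean signal from 0 to 100 kb also rose in each of those 3 steps, so these ratios mix scale with shape. In the promoter-proximal kilobase the ratio was 0.909 from 2 to 5 h, 1.15 from 5 to 8 h, 0.914 from 8 to 10 h, 0.867 from 10 to 12 h and 1.38 from 12 to 24 h. Its values thus lay on both sides of 1 without an order in time, and a ratio as low as that from 2 to 5 h was found again from 10 to 12 h.

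Seen over all libraries on deposited values, the 30 to 60 kb level was 2.51 in the 2 h library and 2.96 in the 5 h library. The 8, 10, 12 and 24 h libraries had 3.14, 3.31, 3.44 and 3.52, and the untreated library had 3.50. The lowest library was that of 2 h, and the widest gap between neighbouring times after UVC was the one between 2 and 5 h. The 1 to 10 kb level was 4.08 in untreated cells, 5.92 at 2 h and 5.06 at 5 h, then 4.94, 4.99, 5.04 and 4.36 at 8, 10, 12 and 24 h. Here the 2 h library was the highest, and the 5, 8, 10 and 12 h libraries lay between 4.94 and 5.06. This near-level stretch holds on the authors' scale only. The share of the 0 to 100 kb signal in this zone was 14.9, 14.1, 13.7 and 13.5% in those libraries. The 10 to 30 kb level was 3.56 in untreated cells and between 3.72 and 4.20 in all UV libraries, with 3.87 at 2 h and 3.99 at 5 h inside that range. By share of the 0 to 100 kb signal, however, 2 h (26.6%) and 5 h (26.1%) were the highest. That share was 21.3% in untreated cells and between 21.9 and 24.9% at 8 to 24 h. The distance at which the signal had fallen to 50% of its 1 to 2 kb level grew from 23 to 47 kb between these libraries, and was 48, 51, 55 and 69 kb in the 8, 10, 12 and 24 h libraries, against 91 kb in untreated cells.

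**Figure D5:**
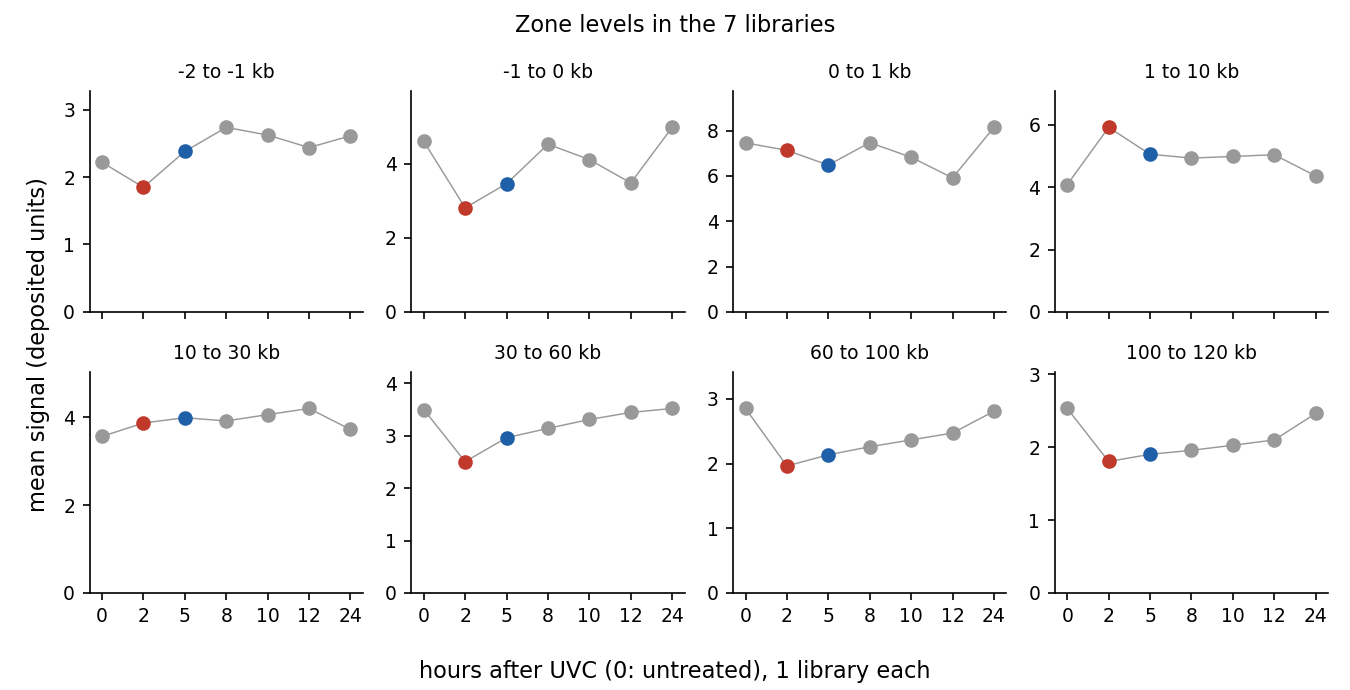
Mean signal (deposited units, y axis from 0) in 8 zones by distance from position 0, in the untreated library (0) and at 2 (red), 5 (blue), 8, 10, 12 and 24 h after UVC, times spaced evenly and 1 library each. From 2 to 5 h the mean level is lower in the 2 zones from 0 to 10 kb and higher in the 2 upstream zones and the 4 zones beyond 10 kb, although bins from 10 to 16 kb were lower; within the gene body the gain is largest from 30 to 60 kb (2.51 and 2.96).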

How the data were processed

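Run-on RNA from 7 libraries of MRC5VA cells was labelled with bromouridine, captured with an antibody resin and read as strand-specific single-end reads, per the labels' protocols. The submitters' processing notes name BWA 0.5.9 and the builds hg19 and GRCh37, without a role. The values the authors deposited are signal, an average coverage per base over genes; the gene list, strand handling and scale are not given in the sources used here. Each profile was matched to the sample under which it was deposited, and the time was read from that sample's title.

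Means, ratios and sums were computed with Python 3.11.15 and numpy 2.4.6 from -2 to 120 kb, in 1-kb bins (100-bp bins near the start). A bin was called higher or lower at a ratio of at least 1.1 or at most 0.909; bins named are the extremes and those at the crossing, the end of gain and the threshold. Reads were recovered as summed signal divided by the step and by 250, the lag at which successive differences had their lowest autocorrelation (-0.37 at 2 h, -0.41 at 5 h); 100% of values were whole multiples of the step within 1e-06. Reads that fall in several genes count more than once, and duplicates cannot be recognised. The code was checked on simulated profiles. No test was possible with 1 library a time. The libraries compared and the zones were chosen with earlier results of these data known. The decline, level and start-peak measures were chosen after seeing the data.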

Additional observations from a re-analysis of the deposited data

How the results depend on the processing

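Bin counts, distances and zone ratios were recomputed under other settings. Counts within 1.5 times, distances within 1 kb and values within their 95% counting interval were taken as unmoved; recovered reads and the 1.1-fold rule for the end of gain were added after seeing the data. No paired analysis was possible because each time has 1 library. Of 97 recomputed values, 26 did not move, 63 moved and 8 changed sign.

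On deposited values the higher bins (50) became 94 with a 5% threshold, 9 at 1.2-fold, 105 by counting interval, 86 after background subtraction and 24 in recovered reads. The lower bins (9) became 2 at 1.2-fold, 16 by counting interval and 17 after background subtraction. After scaling, the higher bins (28) became 48 with a 5% threshold, 1 at 1.2-fold, 79 by counting interval, 77 after background subtraction and 0 with far upstream scaling. The lower bins (13) became 7 at 1.2-fold, 20 by counting interval, 20 after background subtraction and 100 with far upstream scaling.

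The deposited crossing (16 kb) moved to 18 kb after background subtraction and 21 kb in recovered reads; the scaled one (21 kb) stayed within 1 kb under the 6 alternatives that gave a value. The deposited end of gain (120 kb) moved to 94 kb after background subtraction, 79 kb in recovered reads and 70 kb with the 1.1-fold rule. The scaled end (94 kb) moved to 89.5 kb in 500-bp bins, 85 kb for runs of 10 bins, 84 kb when scaled to -2 to 120 kb or to 1 to 100 kb, and 56 kb with the 1.1-fold rule. Far upstream scaling gave no crossing and no end of gain, since it puts every bin beyond 1 kb below 1.

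The share that changed place (4.78%) was 4.67% from 1 to 100 kb, 4.28% from 0 to 120 kb and 11.8% after background subtraction. The median position difference (3.59 kb) was 3.36, 3.07 and 6.21 kb.

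Zone log2 ratios as deposited, from far upstream to 100 to 120 kb, were 0.36, 0.30, -0.14, -0.23, 0.044, 0.24, 0.12 and 0.077. Own-sum scaling gave 0.29, 0.23, -0.21, -0.30, -0.026, 0.17, 0.051 and 0.0066. Recovered reads gave 0.28, 0.22, -0.22, -0.31, -0.037, 0.16, 0.040 and -0.0045. Background subtraction gave 2.35, 0.61, -0.21, -0.37, 0.021, 0.56, 0.46 and 0.21. The far upstream value of 2.35 rests on a small remainder, since the 2 h signal there (1.85) lay close to the subtracted level (1.74). Far upstream scaling, from -1 to 0 kb on, gave -0.064, -0.50, -0.59, -0.32, -0.12, -0.24 and -0.29. Medians, in the 7 zones they moved from -1 to 0 kb on, gave 0.32, -0.17, -0.25, 0.055, 0.25, 0.11 and 0.083. The changes of sign come from the constant that a rescaling adds to every zone. The background was the bin from 118 to 119 kb in both libraries, 59.7% and 59.8% of the mean signal from 0 to 100 kb, and transcription may still contribute there.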
